A study of Mus musculus with 15 samples.

Results

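Later-intron summits are points of locally highest H3K4me3 signal that lay in the body of a gene, in its 2nd or a later intron. They were taken from the summit list that the authors deposited for WT amygdala. A summit was kept when it was more than 1 kb from every transcription start site (TSS) of GENCODE M21 on GRCm38, outside every annotated exon, not in the first intron of any transcript, and inside another intron of at least 1 transcript. Of the 24132 summits on chromosomes 1 to 19 and X, 1147 met this rule, or 4.75% (95% Wilson interval 4.49 to 5.03). The rule used position only, and no score.

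Trimethylation of lysine 4 of histone H3 is placed by the KMT2 and SETD1 methyltransferases and removed by the KDM5 demethylases. It forms sharp domains over active and CpG-rich promoters. It is found at lower levels at alternative and unannotated promoters inside genes and at some active enhancers, where monomethylation usually prevails. Introns after the first one are mostly CpG-poor and hold few annotated promoters, so a summit there is outside the usual place of the mark.

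The study profiled H3K4me3 in the dissected amygdala of adult male F1 129xB6 mice (129S1/SvImJ fathers and C57BL/6J mothers, per the Methods) of 4 genotypes, namely WT, Kmt2a-HET, Kdm5c-KO and DM, which carries both mutations. The labels give 2 WT mice, 3 mice for each mutant genotype and 4 input samples, of which the WT list alone was used here. Nuclei were digested with MNase and precipitated with a rabbit monoclonal H3K4me3 antibody. The mutant genotypes were not analysed here. The WT list pools both mice into 1 set of summits, so no spread between animals could be computed and no test between groups was possible. Intervals given below cover counting error only. Each summit carries a score, read as −log10 of the MACS2 q-value, which grows with sequencing depth as well as with enrichment, and the list does not give the depth behind it. The tissue is a mixture of cells, so a mark in few cells and a weak mark in many cells cannot be told apart. Markers of each cell class listed had promoter summits, 8 of 10 for excitatory neurons, 11 of 12 for inhibitory neurons, 18 of 20 for oligodendrocytes, 6 of 8 for their precursors, 14 of 14 for astrocytes, 16 of 16 for microglia and 15 of 17 for endothelial and mural cells. All 20 of 20 listed transcription factors of amygdala neurons also had one. A promoter summit was present in 72.5% of the 16197 protein-coding genes with later-intron sequence under the rule. The marker counts above were of all listed genes, with or without such sequence. For listed genes with it they were, in the same order, 6 of 6, 7 of 8, 17 of 18 and 6 of 7. For astrocytes, microglia, and endothelial and mural cells they were 11 of 11, 14 of 14 and 14 of 16, and for the transcription factors 18 of 18. The marker counts alone therefore do not show which cells carry the mark.

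The 7 windows of 300 bp below, each centred on a summit, show the kinds of sequence that the rule brought together, with each CpG dinucleotide in capitals. Their letters are those of the plus strand of GRCm38. The first pair were the highest-scoring summits more than 10 kb from every GENCODE start and more than 5 kb from every RefSeq start, in Sh3pxd2a (chr19:47343076-47343375) and Arid1b (chr17:5189894-5190193). The window in Ldb3 (chr14:34549125-34549424) had the highest CpG ratio among such distant summits with a score at or above the median of the whole list. The window in Gm44511 (chr6:128799096-128799395) had the highest CpG ratio among equally high-scoring summits near a start that RefSeq holds. The window in Snd1 (chr6:28832829-28833128) lay upstream of another gene, Lrrc4. The windows in Zfhx3 (chr8:108348576-108348875), the gene with the most later-intron summits, and in Gad1 (chr2:70568378-70568677), a marker of inhibitory neurons, had lower scores, both still above the median of the set.
Sh3pxd2a: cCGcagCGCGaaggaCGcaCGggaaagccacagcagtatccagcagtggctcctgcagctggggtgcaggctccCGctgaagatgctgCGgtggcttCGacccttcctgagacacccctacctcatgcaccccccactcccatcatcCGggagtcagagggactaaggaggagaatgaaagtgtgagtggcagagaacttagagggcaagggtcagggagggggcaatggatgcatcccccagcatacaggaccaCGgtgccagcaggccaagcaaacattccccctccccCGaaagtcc
Arid1b: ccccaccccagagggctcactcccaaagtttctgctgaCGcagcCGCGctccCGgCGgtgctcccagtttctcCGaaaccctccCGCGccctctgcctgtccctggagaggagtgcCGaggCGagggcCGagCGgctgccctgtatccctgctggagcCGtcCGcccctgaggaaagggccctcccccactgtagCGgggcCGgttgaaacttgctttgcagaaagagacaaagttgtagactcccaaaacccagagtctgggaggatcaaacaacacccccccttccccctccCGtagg
Ldb3: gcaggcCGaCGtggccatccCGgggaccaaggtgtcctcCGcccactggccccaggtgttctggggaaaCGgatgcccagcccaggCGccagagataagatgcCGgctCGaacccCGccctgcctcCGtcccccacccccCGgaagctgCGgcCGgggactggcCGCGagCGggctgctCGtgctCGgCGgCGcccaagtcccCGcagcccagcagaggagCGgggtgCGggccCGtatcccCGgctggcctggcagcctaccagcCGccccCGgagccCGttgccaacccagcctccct
Gm44511: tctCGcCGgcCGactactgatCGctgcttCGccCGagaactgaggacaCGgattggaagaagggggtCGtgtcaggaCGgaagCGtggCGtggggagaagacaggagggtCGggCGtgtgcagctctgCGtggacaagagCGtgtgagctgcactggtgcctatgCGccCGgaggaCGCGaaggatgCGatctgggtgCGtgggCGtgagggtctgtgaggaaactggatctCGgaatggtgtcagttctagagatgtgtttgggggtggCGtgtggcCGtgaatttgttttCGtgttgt
Snd1: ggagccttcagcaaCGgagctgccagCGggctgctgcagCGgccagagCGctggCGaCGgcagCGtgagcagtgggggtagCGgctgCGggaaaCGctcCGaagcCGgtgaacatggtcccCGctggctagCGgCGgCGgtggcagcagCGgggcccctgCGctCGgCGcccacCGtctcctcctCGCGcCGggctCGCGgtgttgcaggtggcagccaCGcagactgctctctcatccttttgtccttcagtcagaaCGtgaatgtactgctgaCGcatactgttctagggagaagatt
Zfhx3: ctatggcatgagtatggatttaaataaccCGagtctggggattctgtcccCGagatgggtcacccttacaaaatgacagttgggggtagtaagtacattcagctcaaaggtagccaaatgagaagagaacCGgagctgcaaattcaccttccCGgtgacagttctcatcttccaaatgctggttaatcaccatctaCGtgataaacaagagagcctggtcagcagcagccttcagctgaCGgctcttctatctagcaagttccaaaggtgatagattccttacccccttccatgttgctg
Gad1: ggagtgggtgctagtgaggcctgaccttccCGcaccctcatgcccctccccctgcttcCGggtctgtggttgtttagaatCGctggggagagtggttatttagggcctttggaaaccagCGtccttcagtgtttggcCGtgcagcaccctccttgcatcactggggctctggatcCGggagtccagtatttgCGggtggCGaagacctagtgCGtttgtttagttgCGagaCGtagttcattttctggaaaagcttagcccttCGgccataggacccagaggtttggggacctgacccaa

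The windows differed widely in CpG content. There were 29 CpGs in the Snd1 window, 28 in Ldb3 and 26 in Gm44511, against 17 in Arid1b, 12 in Gad1, 11 in Sh3pxd2a and 6 in Zfhx3. The ratio of observed to expected CpG was 1.10 in Gm44511 and 0.357 in Zfhx3. Their scores did not follow the same order, with 236 in Snd1, 208 in Sh3pxd2a, 204 in Gm44511, 165 in Arid1b, 156 in Ldb3, 29.4 in Zfhx3 and 14.9 in Gad1.

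Most later-intron summits were weak in comparison with promoters. Their scores ran from 1.40 in Atxn1, the ataxin-1 gene, to 259 in Psmc2, with a median of 9.94 (95% interval 9.05 to 10.5) and quartiles of 5.31 and 23.6. A score below 10 was held by 574 of them (50.04%), and 64 (5.58%, Wilson interval 4.39 to 7.06) reached the median of the whole list, 102. The median was 165 at the 17255 promoter summits, 15.4 (14.3 to 16.2) at the 2628 intergenic summits and 8.95 (8.07 to 9.05) at the 2177 first-intron summits. High scores were rarer than in first introns and in intergenic sequence. The share at or above the list median was 3.70 percentage points lower than in first introns (Newcombe interval 1.82 to 5.45) and 4.12 points lower than in intergenic sequence (2.29 to 5.80).

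The rule admits 585 Mb of later-intron sequence, 22.2% of the sequence assigned to any class. It held 1.96 summits per Mb (exact Poisson interval 1.85 to 2.08). Intergenic sequence held 1.90 per Mb (1.83 to 1.98), a ratio of 0.970 to later introns with an interval of 0.905 to 1.04. First introns held 5.10 per Mb, 2.60 times as many as later introns (2.42 to 2.80). By density, later introns thus could not be told from intergenic sequence, whereas their median score was lower. Soft-masked repeats covered a median of 29.0% of intergenic windows of 300 bp and 20.7% of later-intron windows. The classes were not matched for distance to a TSS. The part of that distance, of repeats and of assembly gaps in the densities was not tested.

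**Figure D1:**
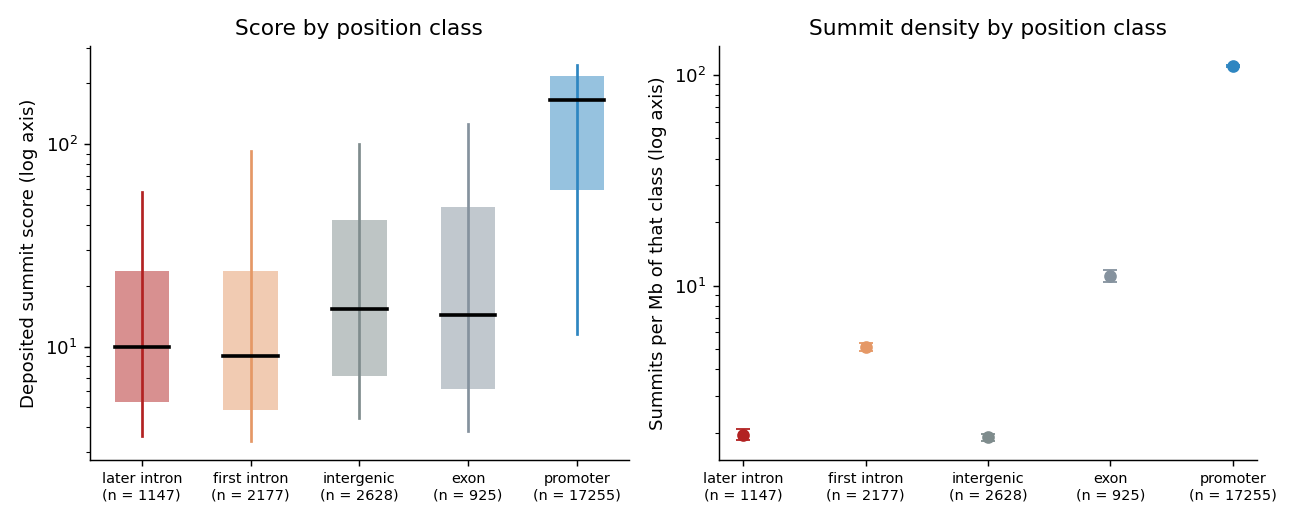
Left, deposited summit scores by position class (log axis), with the median as a black line, the quartiles as a box and the 10th and 90th percentiles as a line. Right, summits per Mb of each class (log axis) with exact Poisson intervals. Later introns had a median score of 9.94 and 1.96 summits per Mb, against 165 and 110.0 at promoters.

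Summits became sparser with distance from annotated starts. The density was 4.34 per Mb (3.58 to 5.21) at 1 to 2 kb from the nearest TSS, 2.13 (1.85 to 2.44) at 5 to 10 kb, 1.62 (1.41 to 1.84) at 20 to 50 kb and 0.796 (0.560 to 1.10) beyond 100 kb. Distances ran from 1001 bp in Ccp110 to 641861 bp in Dcc, the netrin receptor gene, with a median of 10212 bp. The density also differed by the lowest intron number in which the summit lay. It was 2.66 per Mb (2.43 to 2.89) in 2nd introns, which held 520 summits, 2.03 (1.77 to 2.33) in 3rd introns and 1.42 (1.13 to 1.75) in 4th introns. From the 4th intron on the intervals overlapped, with 1.15 per Mb (0.781 to 1.63) beyond intron 20. Intron numbers were not matched for distance to a TSS, whose part in these densities was not tested. The median score moved little with distance, between 9.05 and 10.3 across the bins. The share at or above the list median did not fall steadily. It was 13.0% at 1 to 2 kb, 4.94% at 2 to 5 kb, 4.29% at 5 to 10 kb and 2.44% at 10 to 20 kb. It was then 6.90% at 20 to 50 kb, 6.67% at 50 to 100 kb and 0% of only 37 summits beyond 100 kb.

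**Figure D2:**
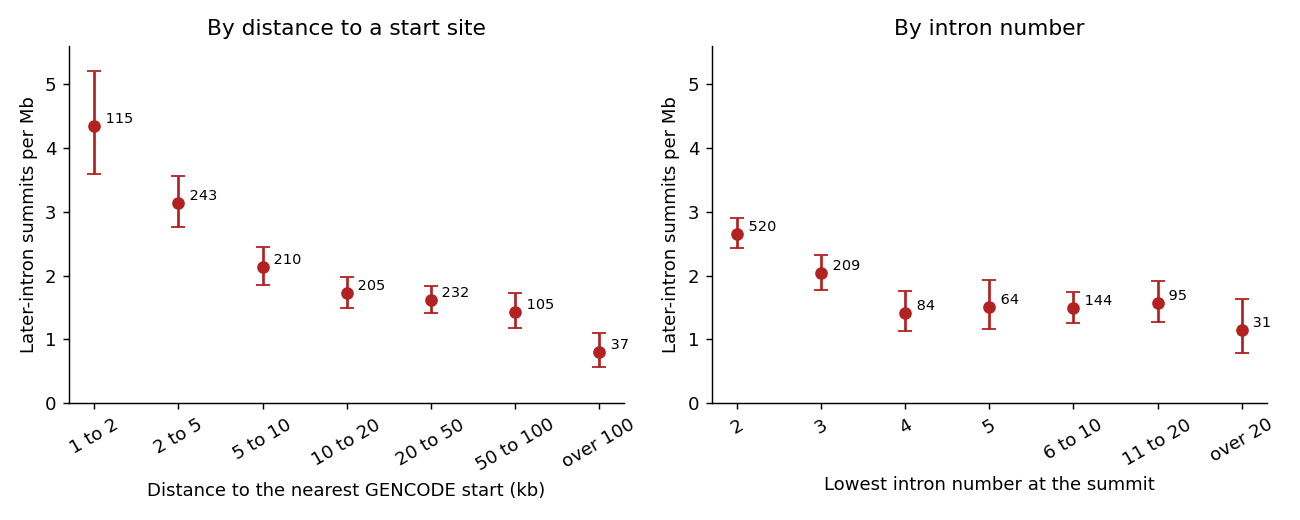
Later-intron summits per Mb of admitted sequence by distance to the nearest GENCODE start (left) and by lowest intron number (right), with exact Poisson intervals and the number of summits beside each point. The density fell from 4.34 per Mb at 1 to 2 kb to 0.796 per Mb beyond 100 kb.

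Too few summits lay next to the limit of 1 kb to tell whether it marks a step in score. Among summits that met every other part of the rule, 14 lay at 901 to 1000 bp from a TSS. Their median was 6.33, with quartiles of 3.83 and 10.7. The 12 at 1001 to 1100 bp had a median of 8.44, with quartiles of 5.77 and 24.9. At 1101 to 1200 bp the 17 summits had a median of 73.2 and scores up to 257.

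Among the 12 highest-scoring summits, 5 lay within 2 kb of an annotated start. The highest, in intron 2 of Psmc2 (chr5:21787143, score 259), was 1860 bp downstream of the gene's nearest TSS and 396 bp from a start that RefSeq places in the same gene. Psmc2 encodes an ATPase of the proteasome's regulatory particle. The summit in intron 3 of the predicted gene Gm37240 (chr3:84814161, score 257) was 1107 bp upstream of Fbxw7, which encodes the substrate-recognition subunit of a ubiquitin ligase. The Snd1 summit in intron 16 (chr6:28832978, score 236) was 1231 bp upstream of Lrrc4, a postsynaptic adhesion gene that lies inside Snd1. In Kdm6a, which encodes an H3K27 demethylase, the summit in intron 2 (chrX:18163794, score 223) was 1146 bp downstream of a Kdm6a start and 1642 bp from a promoter summit. In Phf12, which encodes a PHD finger protein of a Sin3 corepressor complex, it lay in intron 2 (chr11:77984227, score 215) at 1425 bp.

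The 7 others among the 12 were farther from GENCODE starts. In intron 12 of Ptprn2, which encodes a protein of dense-core vesicles, the summit (chr12:117154323, score 231) was 2672 bp upstream of the predicted gene Gm10421. The summit in intron 2 of Nup160, a nuclear pore gene (chr2:90679592, score 195), was 2377 bp downstream of the gene's nearest start, and Nup160 had no promoter summit. In 9330136K24Rik the summit (chr17:21532499, score 199.8) was 2219 bp downstream of CT010433.1. Another 3 lay next to starts that only RefSeq holds. In intron 13 of Rabgap1l (chr1:160579544, score 204) the RefSeq start of Gpr52, an orphan G protein-coupled receptor, was 160 bp away. A predicted start of Prdm2, a PR-domain zinc finger gene, was 409 bp from the summit in its intron 6 (chr4:143161619, score 202). In Gm44511 (chr6:128799245, score 204) a predicted RNA, Gm34755, started 332 bp away. The summit in intron 6 of Sh3pxd2a, which encodes a podosome scaffold (chr19:47343225, score 208), was 28474 bp from the nearest GENCODE start and 56510 bp from the nearest RefSeq start.

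High scores far from both annotations were few. More than 10 kb from every GENCODE start and more than 5 kb from every RefSeq start there were 483 summits (42.1%), with a median of 9.08, and 14 of them reached the list median. Beside Sh3pxd2a these were Arid1b, a subunit gene of the BAF chromatin remodeller (score 165), the growth factor receptor genes Igf1r (163), Insr (135) and Fgfr2 (105), and Ldb3, a Z-disc gene of muscle (156). They also included Ptk2, the focal adhesion kinase gene (133), the scaffold genes Disc1 (138) and Magi1 (128), the kinase gene Mapk4 (112) and Rims1, a gene of the presynaptic active zone (104). The remaining 3 were in Fam13c (153), Gm16675 (149) and A230006K03Rik (130). The Arid1b summit was 77933 bp from the nearest GENCODE start, 34241 bp from the nearest RefSeq start and 189823 bp from any other summit. The Ptk2 summit had a neighbour 873 bp away and lay 65 bp from an exon. The transcript that places Fgfr2 in the set has an intron of 2908817 bp, and the summit lay 24074 bp downstream of a start of another gene, Oat. Introns over 500 kb held 10 later-intron summits in all.

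**Figure D3:**
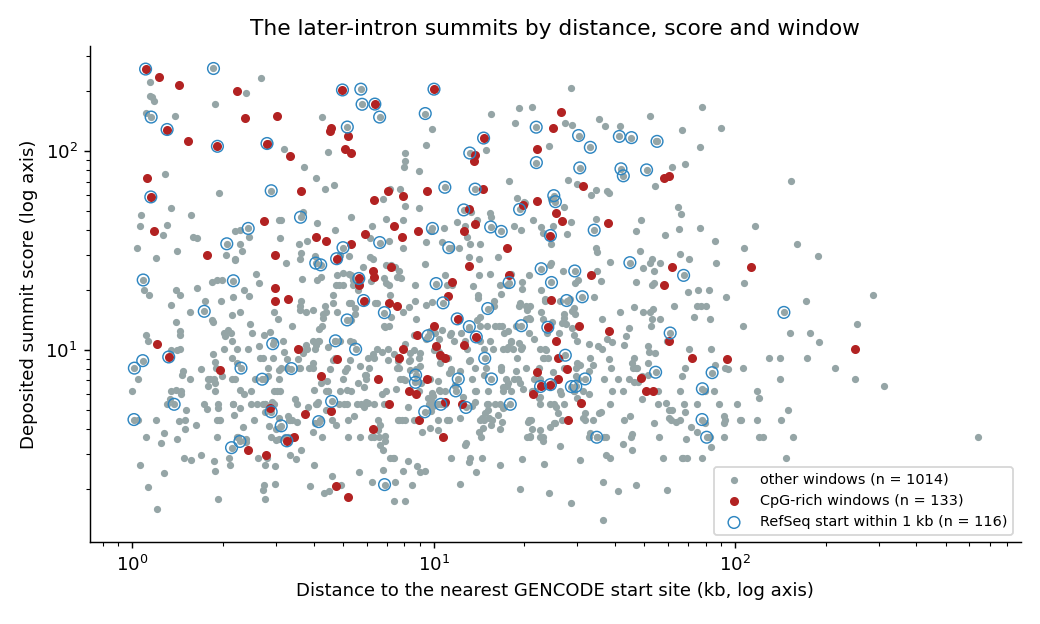
Each of the 1147 later-intron summits by distance to the nearest GENCODE start (kb, log axis) and deposited score (log axis). Red points are the 133 summits in CpG-rich windows, and blue rings mark the 116 with a RefSeq start within 1 kb. Red points and rings are more frequent in the upper part of the plot.

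RefSeq start sites were not used by the rule, and 116 of the 1147 summits (10.1%, 8.50 to 11.99) lay within 1 kb of one. The share of later-intron sequence that near to a RefSeq start was not computed, so 10.1% cannot be called an excess. Scores differed between summits near to and far from a RefSeq start. The median score of the 116 was 21.6 (13.2 to 28.7), against 9.05 (8.76 to 10.1) for the other 1031. Curated transcripts supplied the start in 27 cases, with a median of 50.4 (21.8 to 116), and predicted transcripts alone in 89, with a median of 15.6 (10.7 to 22.8). The start belonged to the host gene in 57 cases and to another gene in 59. Examples with a curated start were Ethe1, the mitochondrial persulfide dioxygenase gene (score 172, 116 bp), Tent4b, a noncanonical poly(A) polymerase gene (128, 637 bp), Gm26680 at the start of Gm3636 (116, 73 bp) and Sall1, a zinc finger transcription factor gene, at the start of Gm3134 (109, 119 bp). The share near a RefSeq start was 11.99% at first-intron summits and 14.1% at intergenic summits, 4.004 points more than in later introns for the latter (1.73 to 6.13).

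The windows of later-intron summits were richer in CpG than later-intron windows in general. A window with a CpG ratio above 0.6 and a GC content above 50% was found at 133 summits (11.6%, 9.87 to 13.6). Of all 1817300 windows of 300 bp that lay wholly in later-intron sequence, 4108 met this (0.226%). A summit window could run into an exon, and 205 summits stood within 200 bp of one. The part of this difference was not tested here, nor for the masking and motif shares below, which use the same windows. The median GC content was 50.7% at the summits and 41.7% in all windows, and the median CpG ratio was 0.419 and 0.151. First-intron summits had a like share of CpG-rich windows, 11.5%, with a difference of 0.112 points (−2.12 to 2.47). Intergenic summits had more, 22.2%, a difference of 10.6 points (8.11 to 13.0), and promoter summits had 55.9%.

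CpG richness and score went together within the set. The 133 summits in CpG-rich windows had a median score of 22.8 (14.3 to 32.3), and the 1014 others 9.05 (8.38 to 10.1). In 4 groups from the lowest to the highest scores, cut at the quartiles, the CpG-rich share was 4.62%, 9.59%, 9.79% and 22.6% (18.2 to 27.8 in the highest). The share with a RefSeq start within 1 kb was 5.28%, 8.12%, 8.74% and 18.5%, and both features were present at 19 summits. CpG-rich windows were nevertheless the minority among strong summits, since 65 of the 287 in the highest group had one. GC content also affects amplification and mappability, whose part in these values was not tested.

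Soft-masked repeats covered a median of 7.33% of the summit windows and 20.7% of all later-intron windows. No base was masked in 392 windows (34.2%), against 14.8% of all windows, and more than 50% was masked in 27, of which the highest score was 43.5, in Zfp536. Only uniquely mapped reads were kept by the authors, which lowers the signal that can be seen in repeats, and its part here was not tested.

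Exact motif letters were counted on both strands of the 300-bp windows, and a match is a description of the letters only. The GC box (GGGCGG) was present at 186 summits, 16.2% (14.2 to 18.5), against 2.44% of all later-intron windows. The Ets motif (CCGGAAG) was found at 4.10% (3.10 to 5.41) against 0.727%, and the CTCF core (AGGGGGCG) at 1.57% (0.995 to 2.47) against 0.209%. These contain CpG, a GC box can overlap the CTCF letters, and the summit windows are CpG-richer than introns in general. The E-box of neurogenic factors (CAGCTG), which has no CpG, was found at 237 summits, 20.7% (18.4 to 23.1) against 10.8%. Most of its letters are G or C, and the median GC content was 50.7% at the summits and 41.7% in all windows. The part of GC content in the E-box shares was not tested. The E-box share was 19.0% at first-intron summits and 21.9% at intergenic summits. The AP-1 motif (TGANTCA) differed little, 9.33% (7.78 to 11.2) against 8.94%. The AT-rich TATA box letters (TATAAA) were rarer at the summits, 10.2% (8.58 to 12.1) against 27.4%, as were the CCAAT box letters, 28.2% against 38.4%. Rarer letters rested on few summits. NRF1 (GCGCATGCG) was at 5, 0.436% (0.186 to 1.02) against 0.0357%, and CRE (TGACGTCA) at 7, 0.610% (0.296 to 1.25) against 0.152%, and both contain CpG. YY1 (AAGATGGCG) was at 3, 0.262% (0.0890 to 0.766) against 0.226%, and Mef2 (TATTTATAG) at 2, 0.174% (0.0478 to 0.634) against 0.574%. The Sox letters (ACAATNG) were at 9.42% against 11.2%.

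**Figure D4:**
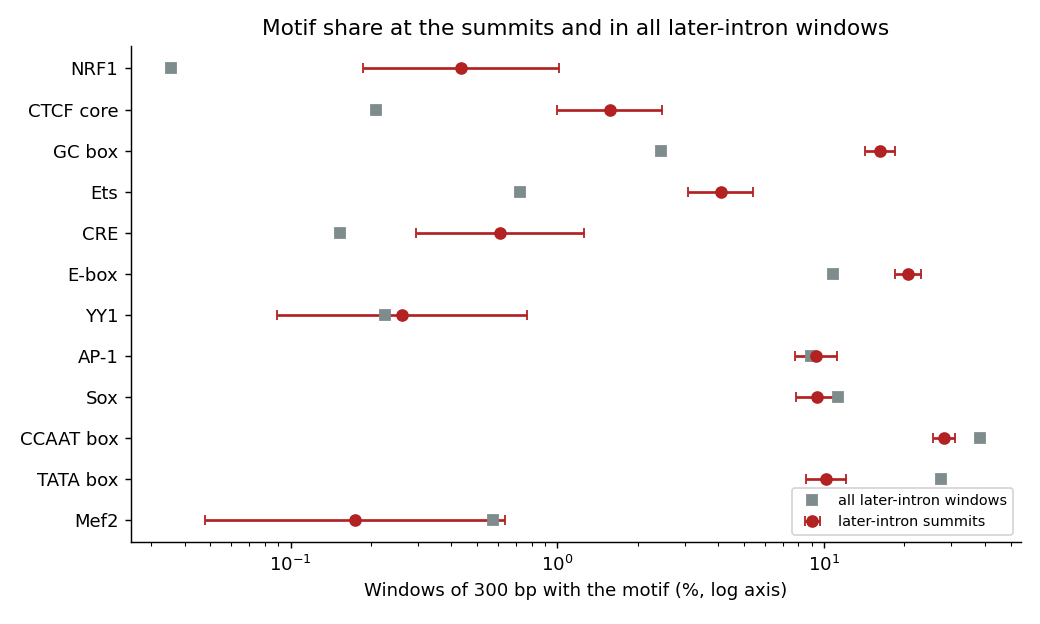
Share of 300-bp windows that held each motif (%, log axis). Red circles are the 1147 later-intron summits with Wilson intervals, and grey squares are all windows of later-intron sequence. The GC box was at 16.2% against 2.44%, the E-box at 20.7% against 10.8% and the TATA box at 10.2% against 27.4%.

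A protein-coding host gene was assigned to 1004 of the summits, a lincRNA to 76, a processed transcript to 33 and an antisense RNA to 24. The lincRNA hosts had a median score of 14.3 (9.76 to 21.8) and the protein-coding hosts one of 9.28 (8.81 to 10.1). For 931 summits (81.2%, 78.8 to 83.3) a host gene also had a summit within 1 kb of one of its starts. Of the admitted later-intron sequence, 77.0% lay in such genes. The density was 2.07 per Mb (1.94 to 2.20) in genes with a marked promoter and 1.60 per Mb (1.40 to 1.83) in genes without one. The order of scores was the other way round, with a median of 9.05 (8.07 to 10.1) in genes with a marked promoter and 14.3 (11.1 to 17.7) in the others. The limit of 1 kb places some summits near their own host's start among the others. Examples were Nup160 (195, at 2377 bp) and Rnd3 (189, at 1149 bp). The part of such summits in the order of scores was not tested. In the 930 cases with a promoter summit in the main host, that promoter had a median score of 180.1. The later-intron summit scored higher than its own host's promoter in 51 cases (5.48%), Psmc2 with 259 against 223, Phf12 with 215 against 124 and Prdm2 with 202 against 162 among them.

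Summits were spread over many genes. There were 902 main hosts, of which 730 had 1 summit, 122 had 2 and 37 had 3. Hosts were long genes. Among 16197 protein-coding genes with admitted sequence, 787 (4.86%) hosted a summit, from 0.988% to 14.9% in 5 equal groups of genes ordered by their amount of later-intron sequence. Per Mb the order was reversed, with 10.9 (7.59 to 15.2) in the group with the least and 1.68 (1.55 to 1.81) in the group with the most.

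Zfhx3, a homeodomain and zinc finger transcription factor gene, had 9 later-intron summits, the most of any gene. Their scores were 29.4, 26.6, 17.2, 13.4, 9.08, 7.71, 7.12, 3.63 and 3.48, all below the highest promoter summit of the gene, 126. They fell in 4 introns along 652 kb, and 3 of them stood close together beside internal promoters. The density was 15.0 per Mb (6.87 to 28.5) of its admitted sequence, against 1.94 in all protein-coding genes, with the gene singled out for its count.

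Nav2, a gene of cytoskeletal guidance in growing neurites, had 6. The highest, 55.5 in intron 11, was 133 bp from a predicted RefSeq start of Nav2, and the next, 30.9, lay 18137 bp from it in the same intron. Dusp10, a MAP kinase phosphatase gene, had 5 within 11.1 kb of intron 2, the highest of 21.1, downstream of a promoter summit of 176. Nfia, a nuclear factor I gene with a role in gliogenesis, had 5, and its highest (65.5) was 213 bp from the start of a predicted RNA, Gm19417. Tenm2, a teneurin gene of synaptic adhesion, had 5 over 1071 kb, of which the one in intron 23 scored 45.6 and the others 14.3, 6.20, 5.31 and 4.45.

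Among the 8 genes with 4 summits each were Cap2, Lhx5, Macrod2, Ostm1, Ppm1h, Rian and Trerf1. They differed in extent. In Lhx5, a LIM homeobox gene, the 4 lay within 2.81 kb, with scores of 4.64 to 23.1. In Macrod2 the 4 lay over 1720 kb, with scores of 3.63 to 16.5. Rian, an imprinted noncoding RNA gene, had 4 within 4.52 kb of intron sequence, the highest of 51.4, and no promoter summit.

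**Figure D5:**
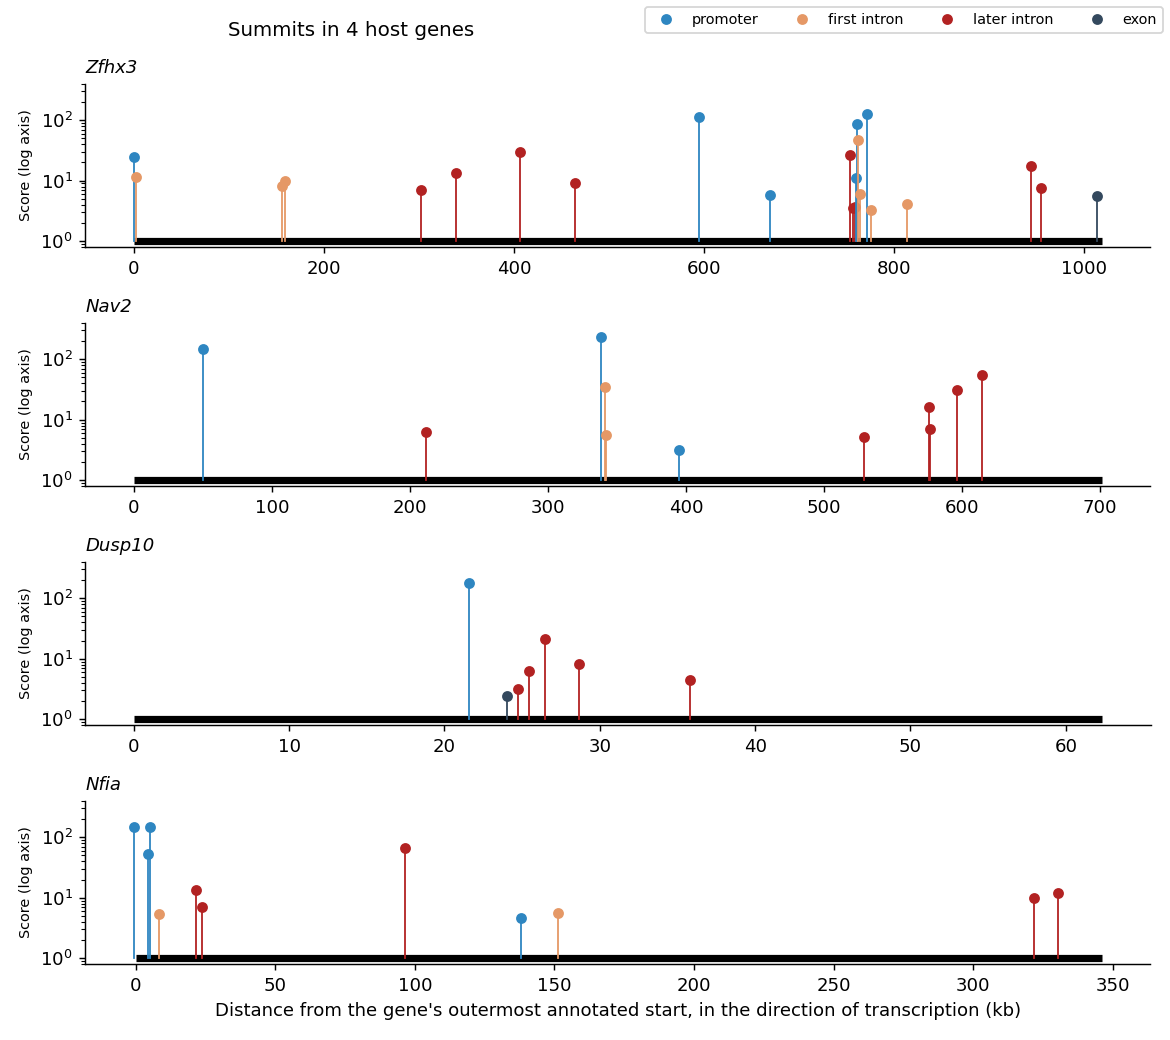
All summits in the 4 genes drawn, by distance from the gene's outermost annotated start in the direction of transcription (kb) and by deposited score (log axis). Black bars are the genes. Later-intron summits (red) stood along 652 kb of Zfhx3, in Nav2 with 5 of 6 downstream of the summit at its strongest promoter, within 11.1 kb of Dusp10 downstream of its promoter summit, and near both ends of Nfia with 1 between them.

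Gaps between summits varied. The nearest other summit was a promoter summit for 609 of the later-intron summits and another later-intron summit for 313. The median gap was 20450 bp, and 214 (18.7%, 16.5 to 21.02) had a neighbour within 2 kb. This share was 37.9% for first-intron summits, 19.2 points more (16.1 to 22.2), and 13.0% for intergenic summits, 5.68 points less (3.15 to 8.34). Isolated summits did not score lower than crowded ones. The median was 10.2 (9.19 to 11.9) for the 720 with no other summit within 10 kb and 7.42 (6.20 to 9.55) for the 214 with one within 2 kb. Some neighbouring summits may be local maxima of 1 enriched region, which a list without intervals does not show.

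Lists of neural genes were compared by counts with all protein-coding genes that have admitted sequence, of which 4.86% hosted a summit at 1.94 per Mb. Both values varied with the amount of later-intron sequence per gene. From the group of genes with the least to that with the most, they ran from 0.988% to 14.9% and from 10.9 to 1.68 per Mb. The comparison was not matched for this amount. The lists were chosen with results of these data known, and no test was run on them. Of 18 transcription factor genes of amygdala neurons, 8 hosted 20 summits, or 7.05 per Mb (4.30 to 10.9), of which 9 were those of Zfhx3. The highest was in Tcf4, a basic helix-loop-helix factor gene, with scores of 64.0, 51.1 and 16.5 in 3 places. Single highest scores were 44.9 in Etv1, an Ets factor gene marking projection neurons, 23.1 in Foxp1, a forkhead factor gene, and 14.1 in Isl1, a LIM homeobox gene. Meis1 and Zbtb20 had 7.22 and 4.45, and the 3 summits of Lmo3 had 9.55, 4.45 and 2.84.

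Markers of inhibitory neurons hosted 5 summits in 4 of 8 genes, 6.26 per Mb (2.03 to 14.6). Lhx6, a factor of interneurons from the medial ganglionic eminence, had 20.5. The GABA-synthesizing enzyme genes Gad1 and Gad2 had 14.9 and 3.54, and 11.1. Erbb4, the neuregulin receptor gene, had 5.31. For excitatory neurons, at 7.86 per Mb (0.952 to 28.4), 2 of 6 genes hosted 1 each, Slc17a6, the vesicular glutamate transporter gene VGLUT2 (12.5), and Tbr1 (6.29). The Gad1 summits were 744 bp apart in intron 3, and the higher was 2150 bp downstream of a Gad1 start.

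Oligodendrocyte markers hosted 8 summits in 5 of 18 genes, 10.5 per Mb (4.53 to 20.7). The zinc finger gene Zfp536 had 43.5, 42.1 and 8.61, of which the first lay in a window with 54% soft-masked bases. The myelin genes Mog and Mbp had 15.4 and 5.31, and 7.47, and the regulators St18 and Myrf had 10.1 and 8.07. The lower Mog window was 98.3% masked. Among precursor markers Lhfpl3 had 76.4, at 1284 bp from the predicted gene Gm42948, and Sox6 had 11.1 and 1.95. Of 11 astrocyte genes only Slc1a3, the glutamate transporter gene, hosted summits, 13.2 and 7.12. Flt1 (13.1) and Kdr (4.45), receptors of vascular endothelial growth factor, were the hosts among 16 endothelial and mural genes. Microglial markers hosted 3 summits in 2 of 14 genes, with a median score of 17.7 and 6.43 per Mb (1.33 to 18.8). The density was 3.78 per Mb (0.780 to 11.1) for precursor markers, 1.13 (0.137 to 4.08) for astrocyte markers and 2.08 (0.252 to 7.53) for endothelial and mural markers. All intervals of these cell-class lists, except that of astrocytes, overlapped the one of oligodendrocytes.

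Synaptic adhesion genes are long, and 17 of 49 hosted 24 summits, but per Mb these were 1.29 (0.830 to 1.93). The highest was 54.7 in Adgrl3, a latrophilin gene, in intron 6. The next hosts by score were Tenm2 (45.6), Ptprf (37.5), Tenm1 (28.7) and Sdk2 (21.8). The Ptprf summit was 129 bp from a predicted RNA start, and that in Sdk2 was 368 bp from the start of Gm39468, while the nearest RefSeq start to the Tenm2 summit was 48140 bp away. Glutamate receptor genes had 5 summits in 5 of 24 genes, 0.807 per Mb (0.262 to 1.88), among them Grid1 (17.6), which encodes a delta receptor, Grm5 (6.20), Grik4 (4.63) and Gria4 (4.45). Grm5 had no summit within 1 kb of a start.

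Channel genes hosted 6 summits in 3 of 32 genes, namely Kcnn2 (17.7 and 11.1), the calcium channel gene Cacna1a (14.3) and Kcnc2 (5.97, 5.31 and 3.63). The 18 genes of cAMP phosphodiesterases and adenylyl cyclases hosted 5, all in the phosphodiesterase genes Pde4d (40.2, 16.5 and 6.20) and Pde4b (10.1 and 1.78). Both Pde4 genes are known for many internal promoters, and the highest Pde4d summit was 65119 bp from the nearest GENCODE start and 73682 bp from the nearest RefSeq start. Splicing regulators hosted 4 in 4 of 21 genes, Elavl2 (39.9), Celf4 (26.7), Nova2 (4.56) and Rbfox3 (4.52). None of the 10 H3K4 methyltransferase and demethylase genes with admitted sequence hosted one, Kmt2a and Kdm5c included, although all 10 had a promoter summit. With 0.348 Mb of admitted sequence in all, the Poisson interval reached up to 10.6 per Mb, which includes the density of all protein-coding genes.

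Genes whose expression differed in the Kdm5c-KO amygdala, taken by gene identifier from the study's list (5C-DEGs), hosted 4 summits in 4 of 91 genes with admitted sequence (4.40%, 1.72 to 10.8). This was near the 4.30% of all 21428 genes with admitted sequence and the 4.86% of the protein-coding ones. The 4 hosts were Kif19a (10.7), the lincRNA gene A830008E24Rik (9.76), Myo18b (3.49) and Slc12a8 (2.12). Among loci that the study displayed, Colec11, a collectin gene, had a summit of 41.4 in intron 3 (chr12:28607792), 15468 bp from the nearest GENCODE start and 234 bp from a predicted RefSeq start of Colec11, with no promoter summit in the gene. A summit in AC141471.2 scored 8.07.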

How the data were processed

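Alignment to mm10 was done by the authors with Bowtie, keeping reads that mapped once, and summits came from MACS2 (version 2.1.0.20140616) run against input. The score in the deposited list was read as −log10 of the q-value, a scale that the file does not name. The list does not give the depth of the samples, and black-list regions were removed by the authors from their common peaks, with no statement for the list itself. Of 24162 lines, each spanning 1 bp, 30 lay on other sequences and were left out. It held 0 columns of single samples.

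Summits were assigned with GENCODE M21, promoter first, then exon, first intron, later intron and intergenic. RefSeq starts, sequence and soft-masking came from GRCm38.p6. Windows were 300 bp. The classification was tested on simulated annotation. Shares carry 95% Wilson or Newcombe intervals, densities exact Poisson intervals and medians order-statistic intervals. No p-value is given, because summits of 1 list are not replicates. The members and lists were chosen with earlier results of these data known. Genes named are the 12 highest-scoring hosts, those with the most members, the highest-scoring members of the listed genes, the extremes in score and distance, 5C-DEGs, Kmt2a, Kdm5c and displayed loci. The 14 distant high-scoring members and the examples near curated RefSeq starts were chosen after their values were seen. Single microglial markers and some other genes are not reported here. The list of the study's own 5C-DEGs was used by gene identifier only. Python 3.11.15, numpy 2.4.6, pandas 2.3.3, scipy 1.17.1 and matplotlib 3.10.9 were used.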

Additional observations from a re-analysis of the deposited data

How the results depend on the processing

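No paired analysis was possible because both WT mice (n = 2) were merged into 1 list, and for the same reason no replicate could be left out. Of 34 other settings, 14 stayed within counting error of the reported value or, for the number, within 1.5 times of it. When summits under the list's median score were dropped, 64 later-intron summits were left, 0.530% of such summits and 0.109 per Mb. With basic transcripts only, where fewer exons, starts and first introns take summits out of the class, there were 1747, or 7.24% of all summits, with 2.59 per Mb and a median score of 11.1. The share was 5.13% beyond 500 bp from a TSS and 3.86% beyond 3 kb, and the density 1.75 per Mb beyond 3 kb and 2.14 with protein-coding genes only. The share with a marked host promoter was 69.6% with a promoter of 500 bp and 78.5% with each host gene once. It was 68.8% with low-scoring members and promoter summits dropped, and 86.7% with a promoter of 3 kb. At 3 kb a later-intron summit near its own host's start counted as the promoter summit, as in Nup160 (195) and Rnd3 (189). The 86.7% therefore cannot show how many hosts had a separate promoter mark. The CpG-rich share was 7.41% with windows of 1000 bp and 3.92% with a CpG ratio above 0.75 and GC above 55%. The share near a RefSeq start was 7.15% within 500 bp, 22.8% within 3 kb and 2.35% with curated transcripts only. The cause of these changes was not tested except where the wider or narrower limit itself sets it. The single pooled list, which gives no depth, and the lack of intervals limit every value to these summits.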

Other observations

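Later-intron summits were unevenly spread over chromosomes. Chromosome 19 held 58 in 16.05 Mb of admitted sequence, or 3.61 per Mb (exact Poisson interval 2.74 to 4.67), and chromosome 8 held 86, or 3.10 per Mb (2.48 to 3.83). Chromosome X held 20 in 27.0 Mb, or 0.740 per Mb (0.452 to 1.14), the lowest of the 20 chromosomes, and chromosome 6 held 1.29 per Mb (0.940 to 1.72). Male mice carry a single X chromosome, and its part in the lower density was not tested. The Kdm6a summit described above was the highest on X, with a score of 223, and Tenm1, also on X, had 28.7.

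Very short introns held some of the summits. In introns of at most 1 kb there were 82, with a median score of 11.4, and 205 of all later-intron summits (17.9%) stood within 200 bp of an exon, with a median of 10.5 (8.86 to 13.5). The share of admitted sequence in such introns, or that near to an exon, was not computed, so neither count can be called an excess. The Nup160 summit, with a score of 195, lay in an intron of 263 bp and 84 bp from an exon, and the Ethe1 summit in an intron of 406 bp and 13 bp from an exon. For these the position of a 1-bp summit, and not the extent of the enriched region, set the class.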
